A study of Mus musculus with 39 samples.

Results

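Photoreceptors without the transcription factor Nrl were compared with wild-type photoreceptors at postnatal day 6 (P6), in 8 of the 39 arrays of the series. They were the 4 arrays labelled Nrl-ko-Gfp P6 (ko) and the 4 labelled wt-Gfp P6 (wt), chosen by these titles. In both genotypes a transgene expressed green fluorescent protein (Gfp) from the Nrl promoter, and Gfp-positive cells were isolated by flow sorting. The labels give the marked cells of wt as rods and their precursors, and those of ko as transformed S-cones. The ko cells carry the Nrl knockout together with the same reporter. The reporter itself depends on the promoter of the gene under study, so the sort did not select cells in which that promoter is silent. Cells carried over in the sort are not excluded. RNA was amplified from sorted cells and hybridised to Affymetrix mouse 430 2.0 arrays, and the deposited signals are on a log2 scale. The 4 ko and 4 wt arrays at P2 and at P10 served to set the P6 differences beside those of the neighbouring stages. Whether replicate arrays derive from different animals is not stated, so p-values measure only the spread between arrays.

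Nrl is a basic leucine zipper factor that acts with the homeodomain factor Crx to direct postmitotic photoreceptor precursors to the rod fate. Without it, mouse precursors that would become rods take on features of S-cones, the cones that carry the short-wavelength opsin. Rods and cones detect light with parallel sets of proteins, an opsin, a transducin, a phosphodiesterase and a cyclic nucleotide-gated channel, most of which are encoded by separate genes in each cell type.

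Differences are given as ko minus wt on the log2 scale with their standard error (SE), and groups as mean ± SD of 4 arrays. A gene was called higher or lower at a Benjamini-Hochberg adjusted p under 0.05 in limma over all 18193 genes. Where the group with the lower signal had an absent detection call, a fold is written "at least", because its signal then only bounds the level. Tfap2b, Gad1, Ret, Dzip1, Cttnbp2 and Rrm2 had present calls but averaged 5.77 to 6.20 in ko, no higher than Nrl (6.21), called absent. Their folds may likewise be lower bounds. In RNA from sorted cells, fewer cells of a type and less RNA per cell cannot be told apart.

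Nrl, the targeted gene, had signals of 6.03, 6.21, 6.11 and 6.48 in the ko arrays, against 11.75, 11.58, 12.07 and 11.15 in the wt arrays. All ko arrays were far below all wt arrays, and the ko detection call was absent. The difference was -5.43 (SE 0.47, adjusted p = 2.47e-09), at least 43.1-fold lower. Whether its probe set falls inside the deleted sequence is not stated.

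The arrays had similar means but unequal spreads. The SD over probe sets was 1.40 to 1.66 in ko and 1.45 to 1.72 in wt, with no detectable group difference (exact two-sided permutation p = 0.657, smallest possible 0.0286). Ko replicate 4 had the third narrowest spread of all 39 arrays. Correlations between arrays were 0.932 to 0.995 within ko, 0.919 to 0.983 within wt and 0.895 to 0.972 between the genotypes. The 3' minus 5' signal of Actb, a measure of RNA length, was 1.80 ± 0.37 in ko and 1.51 ± 0.69 in wt (exact two-sided permutation p = 0.457). Within wt, replicate 3 stood apart at 2.48, against 0.86 to 1.36 in the other wt arrays.

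At P6, 281 of 18193 genes were called (1.54%), 145 higher in ko (0.797%) and 136 lower (0.748%). The median difference over all genes was -0.02, and 2024 genes (11.1%) had an unadjusted p under 0.05. In a fit of the 8 P6 arrays alone, 201 genes were called, 55 higher and 146 lower. Among the called genes, 79 were at least 2-fold higher and 82 at least 2-fold lower, and 19 in each direction passed 4-fold. Of the 281, 254 had ko and wt arrays that did not overlap, while 1482 of all genes (8.15%) had such arrays, 471 with ko above wt (2.59%) and 1011 with ko below wt (5.56%). Detection calls were absent in both groups for 34 of the genes called higher and 17 of those called lower. An absent call did not always go with a dim signal, as Hbb-b2, one of those called higher, averaged 9.57 ± 0.57 in ko.

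**Figure D1:**
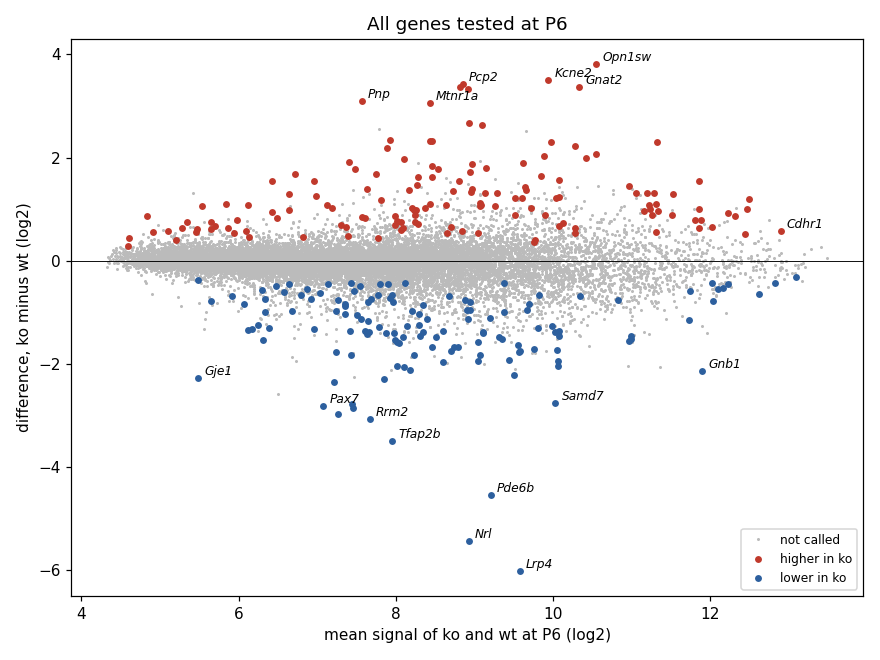
Difference between ko and wt at P6 (vertical axis, log2) against the mean signal of both groups (horizontal axis, log2) for each of the 18193 genes. Red points are the 145 genes called higher in ko and blue points the 136 called lower, and the largest differences are those of Opn1sw (3.81) above and Lrp4 (-6.01) below.

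Ko replicate 4 held the lowest ko value in 114 of the 145 genes called higher. The median over those genes of the array's signal minus the wt mean was 1.31, 1.10, 1.18 and 0.62 in ko replicates 1 to 4, against 0.05, 0.01, -0.02 and -0.04 in wt replicates 1 to 4. Over the 136 genes called lower, the same medians were -1.07, -1.19, -1.2 and -1.28 in ko and 0.06, 0.09, 0.03 and -0.21 in wt. The narrower array thus showed a smaller rise but a fall like that of the other ko arrays. Without it, 323 genes were called, 230 of them higher. The part of its narrow spread in these values was not tested.

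**Figure D2:**
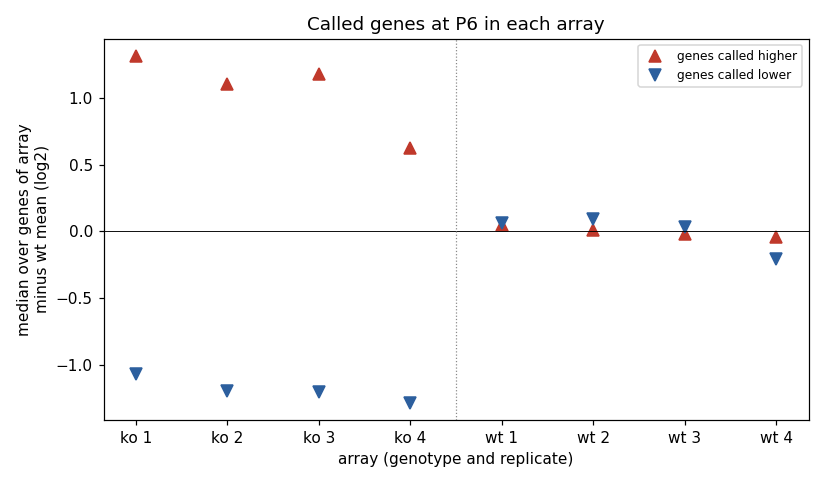
Median over called genes of each array's signal minus the mean of the 4 wt arrays (vertical axis, log2), for the 4 ko arrays and then the 4 wt arrays. Triangles pointing up are the 145 genes called higher and triangles pointing down the 136 called lower, and the genes called higher sit at 0.62 in ko replicate 4 against 1.10 to 1.31 in the other ko arrays.

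The rod genes were the list most often called lower. Of 16 measured members, 7 fell, 0 rose and 9 were not called (43.8% called, against 1.54% of all genes), with a median difference of -1.05 against -0.02 for all genes. The rod list and the cone list below were drawn up with earlier results of these data known. Detection calls were present in ko or wt for 13 of the 16 rod genes. Averaged over members, the list stood at 7.96 to 8.41 in the ko arrays and at 9.33 to 9.95 in the wt arrays, which did not overlap. The rod nuclear receptor Nr2e3 was not analysed here.

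Promoter sequences of the 3 rod genes with the largest falls show the DNA before genes that moved together. They run from 250 bases before to 50 bases after the RefSeq transcription start, in the direction of transcription, on GRCm38.p6. Capitals mark TAATCC, the core bound by Crx and Otx2, and TGCTGA, the core of the Maf and Nrl element, on either strand (GGATTA and TCAGCA on the other strand). Nrl lies at chr14:55524203-55524502, minus strand, Pde6b at chr5:108388123-108388422, plus strand, and Samd7 at chr3:30746043-30746342, plus strand.
Nrl: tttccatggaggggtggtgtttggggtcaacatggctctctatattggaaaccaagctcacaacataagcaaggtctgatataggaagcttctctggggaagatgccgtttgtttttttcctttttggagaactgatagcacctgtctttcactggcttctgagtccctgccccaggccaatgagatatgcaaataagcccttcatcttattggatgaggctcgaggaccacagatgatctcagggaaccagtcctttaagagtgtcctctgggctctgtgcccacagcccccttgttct
Pde6b: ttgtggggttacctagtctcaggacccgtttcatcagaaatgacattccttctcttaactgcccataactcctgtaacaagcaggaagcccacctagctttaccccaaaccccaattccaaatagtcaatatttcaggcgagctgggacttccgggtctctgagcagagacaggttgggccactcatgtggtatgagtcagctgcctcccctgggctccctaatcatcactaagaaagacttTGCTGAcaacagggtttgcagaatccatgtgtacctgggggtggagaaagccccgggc
Samd7: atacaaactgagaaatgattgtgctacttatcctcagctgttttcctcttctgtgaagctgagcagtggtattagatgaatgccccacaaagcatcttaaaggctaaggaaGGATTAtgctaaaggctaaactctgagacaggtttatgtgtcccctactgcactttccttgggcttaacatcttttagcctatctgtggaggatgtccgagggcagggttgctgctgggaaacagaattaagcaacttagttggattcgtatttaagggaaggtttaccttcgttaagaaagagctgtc
Pde6b held 1 TGCTGA, Samd7 held 1 TAATCC in reverse orientation, and Nrl held neither.

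Within the rod transduction machinery, Pde6b, the beta subunit of the rod phosphodiesterase, had the largest difference after Nrl. It had signals of 6.92, 6.94, 7.13 and 6.75 in ko, against 11.56, 11.23, 11.98 and 11.13 in wt. No ko array came near any wt array, and the gene was 23.2-fold lower (difference -4.54, SE 0.31, adjusted p = 8.25e-12). The other subunits of the same enzyme differed from it. Pde6a, the alpha subunit, was called absent in both groups, at 7.04 ± 0.04 in ko and 7.24 ± 0.09 in wt. Pde6g, the inhibitory gamma subunit, was at 11.27, 10.70, 10.99 and 9.28 in ko, against 8.93, 9.5, 10.43 and 8.67 in wt. Pde6g did not pass the test (difference 1.18, SE 0.39, adjusted p = 0.152), its ko arrays overlapped the wt arrays through replicate 4, and it passed under other scalings of the arrays.

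The rod transducin subunits were unequal. Gnb1, the beta subunit, which many other cells also use, was at 11.22, 10.81, 10.73 and 10.54 in ko, against 12.73, 13.18, 13.23 and 12.74 in wt. The groups were separate and Gnb1 was 4.42-fold lower (difference -2.14, SE 0.38, adjusted p = 8.80e-04). Gnat1, the alpha subunit, was at 7.77, 7.81, 7.67 and 8.06 in ko, against 9.08, 9.06, 8.91 and 8.83 in wt. Its 2.21-fold fall lay just inside the threshold (adjusted p = 0.0476), and leaving out any one of the 8 arrays ended the call, with an adjusted p of up to 0.152. The fit of the 8 P6 arrays alone kept the call of Gnat1. Fits with trended, robust variances (adjusted p = 0.0524) and of all probe sets (0.0501) did not. Gngt1, the gamma subunit, averaged 11.76 ± 0.66 in ko and 12.30 ± 0.19 in wt and was not called (adjusted p = 0.395).

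Both subunits of the rod cyclic nucleotide-gated channel fell. Cnga1, the alpha subunit, was at 6.78, 7.18, 6.95 and 7.37 in ko, against 8.94, 9.49, 9.28 and 8.82 in wt, at least 4.17-fold lower (adjusted p = 4.78e-05). Cngb1, the beta subunit, was at 7.20, 7.34, 7.14 and 7.39 in ko, against 8.30, 8.30, 9.87 and 8.23 in wt, at least 2.66-fold lower (adjusted p = 0.032). For Cngb1 wt replicate 3 stood well above the other wt arrays, and its call was lost without that array, without any of ko replicates 1 to 3, and in a fit of the P6 arrays alone, with adjusted p of up to 0.146. Samd7, a repressor that limits the expression of other cell types' genes in rods, was at 8.74, 8.64, 8.80 and 8.44 in ko, against 11.52, 11.10, 11.56 and 11.47 in wt. The Samd7 arrays were tight within each genotype and the gene was 6.77-fold lower (difference -2.76, SE 0.31, adjusted p = 4.77e-07).

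The remaining rod genes did not pass the test. Sag, the rod arrestin, averaged 10.64 ± 0.82 in ko and 11.59 ± 0.67 in wt (adjusted p = 0.415), with wt replicate 3 at 12.58 as the highest. Reep6, which serves membrane traffic in rods, averaged 7.81 ± 0.43 in ko and 8.63 ± 0.38 in wt without overlap (adjusted p = 0.149). Rdh12, a retinol dehydrogenase of photoreceptor inner segments, averaged 8.13 ± 0.45 in ko and 9.43 ± 0.59 in wt (adjusted p = 0.0539). Rdh12 therefore stood just outside the threshold, and both Rdh12 and Reep6 were called lower under the quantile and single-SD scalings. Guca1b, a guanylate cyclase activator, averaged 8.2 ± 0.39 in ko and 7.52 ± 0.35 in wt (adjusted p = 0.569). The exchanger Slc24a1 and the nuclear receptor Esrrb were called absent in both groups.

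The cone genes were the list most often called higher. As this list was drawn up with earlier results of these data known, its rank is not independent of them. Of 16 measured members, 9 rose, 0 fell and 7 were not called (56.2% called, against 1.54% of all genes), with a median difference of 1.18. Detection calls were present in ko or wt for 12 of them. The list stood at 9.83, 9.70, 9.77 and 8.94 in ko replicates 1 to 4, against 8.28, 8.29, 8.22 and 8.05 in wt. Ko replicate 4 was the lowest ko array but lay above every wt array. The channel subunit Cnga3 was not analysed here.

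For the 3 cone genes with the largest rises, the promoters are shown with the same marks. Opn1sw lies at chr6:29380464-29380763, minus strand, Kcne2 at chr16:92292139-92292438, plus strand, and Gnat2 at chr3:108092816-108093115, plus strand.
Opn1sw: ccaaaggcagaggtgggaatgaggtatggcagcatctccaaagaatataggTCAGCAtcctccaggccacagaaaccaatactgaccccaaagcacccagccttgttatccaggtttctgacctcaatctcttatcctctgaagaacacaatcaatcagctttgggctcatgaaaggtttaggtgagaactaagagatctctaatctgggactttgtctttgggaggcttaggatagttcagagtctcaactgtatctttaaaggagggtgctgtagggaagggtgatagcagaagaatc
Kcne2: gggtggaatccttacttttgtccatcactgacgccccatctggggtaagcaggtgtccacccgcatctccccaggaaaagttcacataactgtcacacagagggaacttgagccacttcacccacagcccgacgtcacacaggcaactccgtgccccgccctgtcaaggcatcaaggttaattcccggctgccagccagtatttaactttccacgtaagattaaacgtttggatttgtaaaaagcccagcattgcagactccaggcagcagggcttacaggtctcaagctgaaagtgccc
Gnat2: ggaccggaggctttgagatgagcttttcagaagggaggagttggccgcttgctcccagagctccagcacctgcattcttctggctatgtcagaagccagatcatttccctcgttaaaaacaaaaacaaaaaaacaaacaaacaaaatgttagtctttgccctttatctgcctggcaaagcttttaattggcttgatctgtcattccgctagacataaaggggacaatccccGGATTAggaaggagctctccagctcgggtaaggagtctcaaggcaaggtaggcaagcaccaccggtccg
Opn1sw held 1 TGCTGA in reverse orientation, Gnat2 held 1 TAATCC in reverse orientation, and Kcne2 held neither in the first of its 2 promoters in the table, the one shown. Among genes with a promoter in the RefSeq table, the first listed being used, TAATCC on either strand was in 7.08% of those called higher (8 of 113), 12.7% of those called lower (14 of 110) and 6.03% of all (867 of 14367). TGCTGA was in 13.3%, 16.4% and 17.2% of the same sets, and the nuclear receptor core GGTCA in 37.2%, 34.5% and 39%. These shares were not tested, and a match is not evidence of binding.

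Opn1sw, the S-opsin, was at 12.63, 12.76, 12.72 and 11.68 in ko, against 7.70, 9.52, 9.67 and 7.68 in wt. The ko arrays were all higher, while wt arrays fell into a dimmer and a brighter pair. Opn1sw was 14.0-fold higher (difference 3.81, SE 0.51, adjusted p = 1.51e-05), the largest rise among all genes tested. Opn1mw, the M-opsin, was called absent in both groups, at 6.06 ± 0.05 in ko and 6.03 ± 0.19 in wt.

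All 3 cone transducin subunits rose. Gnat2, the alpha subunit, was at 12.25, 12.09, 12.36 and 11.37 in ko, against 8.82, 9.09, 8.52 and 8.19 in wt, 10.3-fold higher (adjusted p = 6.45e-07). Gnb3, the beta subunit, was at 12.24, 11.94, 12.21 and 11.01 in ko, against 10.62, 10.59, 11 and 9.93 in wt, 2.49-fold higher (adjusted p = 0.0398). Gngt2, the gamma subunit, was at 9.84, 9.79, 9.37 and 9.39 in ko, against 8.43, 8.47, 8.61 and 8.64 in wt, 2.09-fold higher (adjusted p = 3.30e-04). The ko and wt arrays were separate for each of them, and the call of Gnb3 was lost in 6 of the 8 fits that left out an array, with an adjusted p of up to 0.164.

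Pde6c, the catalytic subunit of the cone phosphodiesterase, was at 11.77, 11.72, 11.92 and 10.14 in ko, against 9.60, 9.37, 8.48 and 9.20 in wt, 4.67-fold higher (adjusted p = 0.00221). Pde6h, its inhibitory subunit, was at 11, 10.31, 10.05 and 9.17 in ko, against 8.89, 9.11, 9.38 and 8.49 in wt, and was not called (adjusted p = 0.117), though it passed with quantile normalization (0.013), arrays scaled to one SD (0.0189), without 6 doubted arrays of the series, ko P6 replicate 4 among them (0.0112), and with the mean of its 2 probe sets (0.0488). Cngb3, the cone channel's beta subunit, was at 9.79, 9.72, 9.63 and 7.96 in ko, against 7.91, 8.29, 7.19 and 7.21 in wt, 3.08-fold higher (adjusted p = 0.00536). In both Pde6h and Cngb3 the overlap with wt came from ko replicate 4, and Cngb3 was not called in a fit of the 8 P6 arrays alone (adjusted p = 0.145).

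Kcne2, an accessory subunit of potassium channels, was at 12.16, 12.23, 12.14 and 10.25 in ko, against 8.30, 8.59, 7.94 and 7.90 in wt, 11.4-fold higher (adjusted p = 2.06e-06). Otop3, a member of the otopetrin family of proton channels, was at 10.71, 9.67, 10.24 and 9.0 in ko, against 8.06, 7.83, 8.48 and 7.76 in wt, at least 3.66-fold higher (adjusted p = 5.37e-05). Ccdc136, a coiled-coil protein, was at 13.16, 13.13, 13.29 and 12.79 in ko, against 12.01, 11.28, 12.21 and 12.05 in wt, 2.30-fold higher (adjusted p = 8.82e-05). These 3 genes had separate groups, and Ccdc136 was already bright in wt.

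Not every cone gene differed detectably. Arr3, the cone arrestin, was at 9.38, 9.52, 9.96 and 7.52 in ko, against 8.96, 8.82, 8.80 and 8.35 in wt (difference 0.36, SE 0.37, adjusted p = 0.847). Ko replicates 1 to 3 were above wt and replicate 4 was below all wt arrays. The thyroid hormone receptor Thrb, which is needed for M-opsin in mouse cones, averaged 5.88 ± 0.12 in ko and 5.86 ± 0.24 in wt. Its calls were present, but both averages were below that of Nrl in ko (6.21, called absent), so a difference in Thrb could go unseen. Rxrg, the retinoid X receptor that marks cones, averaged 8.24 ± 0.31 in ko and 7.95 ± 0.31 in wt with absent calls in both groups. Slc24a2 and Clca3a2 were also called absent in both groups.

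**Figure D3:**
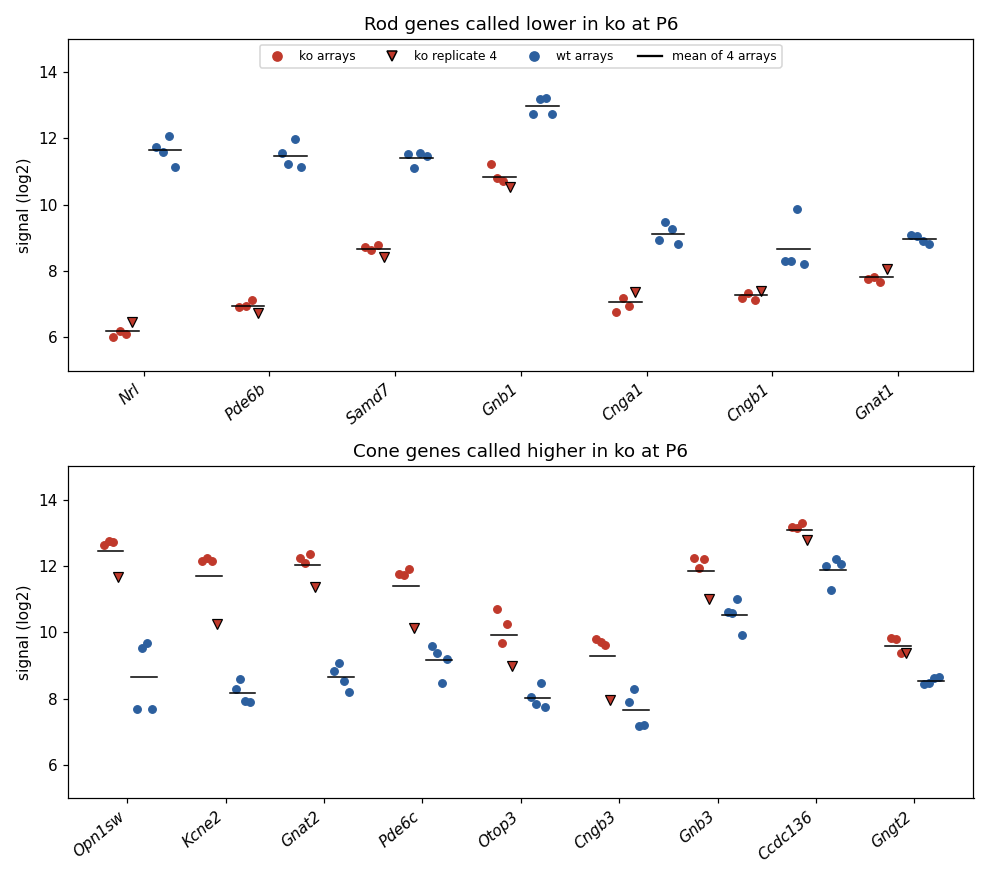
Signal (log2) in each of the 4 ko and 4 wt arrays at P6 for the 7 rod genes called lower (top) and the 9 cone genes called higher (bottom), with ko left of wt and a bar at each mean of 4 arrays. Ko replicate 4, drawn as a triangle, is below the other ko arrays in 8 of the 9 cone genes, and its Cngb3 value of 7.96 lies within the wt range.

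Few genes of the shared apparatus were called. Of 17 measured phototransduction genes used by both cell types, only Guca1a, a guanylate cyclase activator, was called, and 16 were not (5.9% called, against 1.54% of all genes). Guca1a was at 10.31, 9.19, 9.48 and 7.43 in ko, against 6.49, 6.45, 7.54 and 6.55 in wt, at least 5.07-fold higher (adjusted p = 7.82e-04). Its groups overlapped in ko replicate 4 and wt replicate 3, and the fit of the 8 P6 arrays alone did not call it (adjusted p = 0.103). None of 24 visual cycle and retinoid genes was called by limma, and 4 of them had an unadjusted p under 0.05 (11.1% of all genes), each lower in ko.

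Among 17 outer segment genes, 2 rose and 1 fell (17.6% called, against 1.54% of all genes). Rp1, a microtubule-associated protein of the axoneme, averaged 10.18 ± 0.71 in ko and 11.74 ± 0.08 in wt, 2.95-fold lower (adjusted p = 0.0104). Rp1l1, a relative of Rp1, averaged 11.63 ± 0.47 in ko and 10.67 ± 0.60 in wt, 1.94-fold higher (adjusted p = 0.0424). Cdhr1, a cadherin at the base of the outer segment, averaged 13.18 ± 0.16 in ko and 12.61 ± 0.19 in wt, 1.49-fold higher (adjusted p = 0.00537). The call of Rp1 was lost without ko replicate 4 (adjusted p = 0.057), that of Rp1l1 without 6 of the 8 arrays in turn (up to 0.185), and that of Cdhr1 with arrays scaled to one SD (adjusted p = 0.268). The fit of the 8 P6 arrays alone called none of the 3 (adjusted p 0.0556, 0.283 and 0.0965).

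Of 26 measured regulators of photoreceptor fate, 2 rose and 2 fell (15.4% called, against 1.54% of all genes), with a median of -0.07. Those that fell were Nrl and Samd7, which the rod list also holds. Sall3, a zinc finger factor needed for S-cone development, was at 7.72, 7.46, 7.55 and 6.09 in ko, against 5.55, 5.40, 5.89 and 5.80 in wt, at least 2.92-fold higher (adjusted p = 0.00449). Insm2, a zinc finger factor, was at 11.82, 11.81, 11.84 and 11.41 in ko, against 10.12, 10.35, 11.11 and 10.01 in wt, 2.50-fold higher (adjusted p = 0.0304). The groups were separate for both. Sall3 was not called in the fit of the 8 P6 arrays alone (adjusted p = 0.0804), and Insm2 lost its call in 6 of the 8 fits that left out an array, with an adjusted p of up to 0.114. The mean over the probe sets of Insm2 was not called either (adjusted p = 0.0883).

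At the synapse, 2 of 27 measured genes rose and 1 fell (11.1% called, against 1.54% of all genes), with a median near 0. Slc17a7, the vesicular glutamate transporter of photoreceptors, was at 9.84, 9.20, 9.72 and 7.58 in ko, against 6.73, 7.44, 7.34 and 6.95 in wt, 3.92-fold higher (adjusted p = 8.80e-04). Syp, synaptophysin, averaged 11.70 ± 0.31 in ko and 10.82 ± 0.24 in wt, 1.84-fold higher (adjusted p = 0.00591). Rims1, an active zone scaffold, averaged 7.23 ± 0.30 in ko and 8.81 ± 0.84 in wt, 2.99-fold lower (adjusted p = 0.0235). All 3 pairs of groups were separate. The fit of the 8 P6 arrays alone called none of the 3, with adjusted p of 0.0988, 0.0675 and 0.106. Slc1a7, a glutamate transporter with a chloride conductance, was the only one of 17 neuronal channels and transporters called (5.9%, against 1.54% of all genes). It was at 11.78, 11.65, 11.97 and 10.90 in ko, against 9.42, 9.10, 10.53 and 8.96 in wt, 4.21-fold higher (adjusted p = 0.00107).

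Outside the photoreceptor lists, the largest rises were of genes with varied roles. Pcp2, a modulator of G-protein signalling known from Purkinje and bipolar cells, was at 11.46, 10.59, 10.80 and 9.37 in ko, against 7.10, 7.08, 7.23 and 7.13 in wt, 10.7-fold higher (adjusted p = 1.58e-07). Socs3, a feedback inhibitor of cytokine receptors, was at 10.94, 10.87, 11.09 and 9.10 in ko, against 7.69, 7.43, 6.25 and 7.15 in wt, 10.4-fold higher (adjusted p = 3.89e-07). Moxd1, a monooxygenase related to dopamine beta-hydroxylase, was at 10.63, 10.84, 10.60 and 10.26 in ko, against 7.38, 7.70, 7.08 and 6.88 in wt (difference 3.32, SE 0.23, adjusted p = 8.25e-12). In Moxd1, unlike Pcp2 and Socs3, ko replicate 4 lay close to the other ko arrays. Socs3 was the only one of 21 measured cytokine receptor, STAT and Socs genes called (4.8%, against 1.54% of all genes).

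Genes of metabolism and signalling followed in size. Pnp, purine nucleoside phosphorylase, was at 9.5, 9.29, 9.36 and 8.31 in ko, against 5.89, 6.81, 5.54 and 5.81 in wt, 8.60-fold higher (adjusted p = 1.32e-06). Mtnr1a, a melatonin receptor, was at 10.60, 9.99, 10.37 and 8.89 in ko, against 6.96, 6.73, 6.66 and 7.24 in wt, 8.37-fold higher (adjusted p = 4.09e-08). Mtnr1a was the only one of 18 clock and melatonin genes called (5.6%, against 1.54% of all genes). Prickle2, a planar cell polarity protein, averaged 10.26 ± 0.53 in ko and 7.59 ± 0.33 in wt, 6.33-fold higher. Pank1, a pantothenate kinase of coenzyme A synthesis, averaged 10.41 ± 0.52 in ko and 7.77 ± 0.77 in wt, 6.24-fold higher. Their adjusted p were 6.08e-05 and 1.41e-04.

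The other genes among the 20 largest rises, which were taken only from genes with separate groups, were between 3.99-fold and 5.02-fold higher. They were Plec, the cytolinker plectin, Chrnb4, a nicotinic acetylcholine receptor subunit, Smug1, a uracil-DNA glycosylase, Wdr31, Wscd2, Ankrd33, a repressor of photoreceptor genes, and Ece1, the endothelin-converting enzyme. Their adjusted p ran from 7.77e-07 for Ece1 to 0.00225 for Wdr31. Smug1 averaged 11.13 ± 0.75 in ko and 8.82 ± 0.23 in wt, and Ankrd33 averaged 10.90 ± 0.74 in ko and 8.88 ± 0.42 in wt. Ko replicate 4 was the lowest ko array in each of these genes. The fit of the 8 P6 arrays alone did not call Chrnb4, Wdr31 or Wscd2, with adjusted p of 0.0514, 0.0755 and 0.0694. Folds of Wdr31 and Wscd2 are lower bounds, as wt was called absent.

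Lrp4, a low-density lipoprotein receptor relative that binds agrin and modulates Wnt signalling, had the largest difference of all genes tested. It was at 6.98, 6.61, 6.47 and 6.22 in ko, against 12.78, 12.81, 12.13 and 12.60 in wt. The wt arrays were among the bright signals and ko was called absent, so that Lrp4 was at least 64.3-fold lower (difference -6.01, SE 0.52, adjusted p = 2.43e-09). It was the only one of 31 measured Wnt pathway genes called (3.2%, against 1.54% of all genes), and the list's median was -0.07.

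Genes used by other retinal neurons were among the largest falls. Tfap2b, a transcription factor of amacrine and horizontal cells, was at 6.41, 6.11, 6.05 and 6.23 in ko, against 9.5, 10.14, 9.77 and 9.39 in wt, 11.3-fold lower (adjusted p = 0.00104). Gad1, the enzyme that makes the transmitter GABA, was at 5.88, 6.08, 6.04 and 6.23 in ko, against 8.63, 9.56, 8.59 and 8.56 in wt, 6.85-fold lower (adjusted p = 0.0196). The ko values were uniform, and groups separate from wt were a condition for naming the largest falls. The call of Gad1 was lost in 4 of the fits that left out an array (adjusted p up to 0.0805) and kept in the fit of the 8 P6 arrays alone. Of 17 measured amacrine and horizontal markers these 2 fell and 0 rose (11.8% called, against 1.54% of all genes). Of the list, 7 were absent in both groups, and the median was -0.12. The list averaged 7.39 to 7.53 in ko and 7.96 to 8.27 in wt, without overlap, and its part in the results was not tested.

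Ebf3, a factor of ganglion and amacrine cells, averaged 7.96 ± 0.21 in ko and 9.63 ± 0.33 in wt, at least 3.18-fold lower (adjusted p = 0.00789). Ebf3 was the only one of 14 ganglion cell markers called (7.1%, against 1.54% of all genes). Only 1 of its 3 probe sets had that sign, and their mean was not called (adjusted p = 0.241). Those markers averaged 7.01 to 7.24 in ko and 7.35 to 7.74 in wt. Of 16 bipolar markers 2 were called higher and 0 lower (12.5% called, against 1.54% of all genes), with a median of -0.05. Of the 16, 6 had a difference above 0 and 10 below 0, as did 8372 and 9821 of all genes. The 2 called were Pcp2 and Lhx4, a homeodomain factor that cones also express. Lhx4 was at 12.63 ± 0.31 in ko and 11.08 ± 0.22 in wt, 2.94-fold higher (adjusted p = 0.00107). Neither list was tested as a set.

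The other large falls were of genes with varied roles. Ret, the receptor of GDNF family ligands, averaged 5.77 ± 0.40 in ko and 8.75 ± 0.35 in wt, 7.90-fold lower (adjusted p = 0.0297). Its call was lost in 6 of the 8 fits without an array and kept in the fit of the 8 P6 arrays alone. Pax7, a paired-box factor, was at 5.37, 5.76, 5.69 and 5.87 in ko, against 8.78, 8.66, 8.71 and 7.79 in wt, at least 7.03-fold lower (adjusted p = 2.43e-09). Robo1, a receptor for Slit guidance cues, averaged 8.08 ± 0.19 in ko and 10.02 ± 0.73 in wt, 3.85-fold lower (adjusted p = 0.0051), although only 1 of its 3 probe sets had that sign and their mean was not called (adjusted p = 0.0662). It was the only one of 36 axon guidance and adhesion genes called (2.8%, against 1.54% of all genes). The sodium channel gene Scn3a, the metabotropic glutamate receptor gene Grm7, the cortactin-binding protein gene Cttnbp2 and Dzip1, which acts in cilia, were 3.90-fold to 7.26-fold lower, with adjusted p from 8.80e-04 to 0.00491. Gje1, a connexin-family gene, and Pitpnm3, a phosphatidylinositol transfer protein, were at least 4.83-fold and at least 4.63-fold lower. Frmpd2 and Zfp386 completed the 20 largest falls, at 4.15-fold and 4.13-fold lower. Like the rises, these falls were taken only from called genes with separate groups.

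Cell cycle and progenitor genes were listed as well. Rrm2, the small subunit of ribonucleotide reductase, was at 6.41, 5.79, 5.88 and 6.46 in ko, against 8.31, 10.83, 9.95 and 7.77 in wt, 8.46-fold lower (adjusted p = 0.044). The wt arrays spread widely. The other 2 probe sets of Rrm2 differed by -0.36 (adjusted p = 0.816 over all probe sets) and, absent in both groups, by 0.30 (0.135), and neither was called, nor was the mean over the 3 (adjusted p = 0.175). The call was lost in 7 of the 8 fits without an array (adjusted p up to 0.194). It was the only one of 25 cell cycle genes called (4.0%, against 1.54% of all genes), with 10 absent in both groups. That list averaged 7.56 to 7.72 in ko and 7.84 to 8.08 in wt. Of 19 progenitor genes only the Notch ligand gene Dll3 was called (5.3%, against 1.54% of all genes). It averaged 6.46 ± 0.03 in ko and 7.13 ± 0.09 in wt, at least 1.58-fold lower (adjusted p = 0.0374). The call of Dll3 was lost without any one of the 8 arrays and kept in the fit of the 8 P6 arrays alone. The progenitor list averaged 7.73 to 8.12 in ko and 7.94 to 8.55 in wt, with overlap. Their part in the other results was not tested.

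Endothelial, microglial, pigment, red cell and lens markers were mostly absent by detection call, while Müller glia markers were present in ko or wt for 11 of 15. All 12 endothelial markers were absent in both groups by detection call, and 11 of 14 microglial and leukocyte markers were. C1qb, a complement subunit made by microglia, was nevertheless at 10.27, 9.5, 9.65 and 8.30 in ko, against 7.89, 7.65, 7.43 and 7.63 in wt, at least 3.44-fold higher (adjusted p = 0.00824, and 0.0629 without ko replicate 1). The microglial list averaged 6.88 to 7.17 in ko and 6.49 to 6.87 in wt. Tyrp1 and Dct, melanin synthesis enzymes of pigment cells, averaged 7.70 ± 0.25 and 8.01 ± 0.07 in ko, against 6.67 ± 0.21 and 7.20 ± 0.23 in wt. They were the 2 of 13 pigment markers called (15.4%, against 1.54% of all genes). Hbb-b2, a globin gene that shares probes with near-identical copies, was called higher (adjusted p = 0.016) with absent calls in both groups, and lost the call in 3 of the fits without an array (up to 0.0702). Among 15 Müller glia and astrocyte markers none was called by limma, with 4 at an unadjusted p under 0.05, and among 12 lens crystallins none, with 1 at that level, against 11.1% of all genes. Of the 14 microglial markers 5 were at that level, each higher in ko. None of these lists was tested as a set.

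Metabolic and stress genes contributed single calls. Cox5b, a subunit of cytochrome oxidase, was the only one of 23 oxidative phosphorylation genes called (4.3%, against 1.54% of all genes). It averaged 12.28 ± 0.25 in ko and 11.48 ± 0.32 in wt, 1.73-fold higher (adjusted p = 0.0278). Of the 23, 18 had a difference above 0, as did 8372 of all 18193 genes, and the list was not tested as a set. Gpat3, an acyltransferase of lipid synthesis, averaged 9.38 ± 0.84 in ko and 7.54 ± 0.15 in wt, at least 3.56-fold higher (adjusted p = 0.00316). Pla2r1, a phospholipase A2 receptor, averaged 7.31 ± 0.27 in ko and 9.15 ± 0.58 in wt, 3.57-fold lower (adjusted p = 0.00318). Those were the 2 calls among 22 lipid and creatine genes (9.1%, against 1.54% of all genes). Dusp1, a phosphatase induced by stress, averaged 10.24 ± 0.09 in ko and 11.75 ± 0.35 in wt, 2.86-fold lower (adjusted p = 0.0124). It was the only one of 24 immediate-early and stress genes called (4.2%, against 1.54% of all genes). Klf12 averaged 9.19 ± 0.22 in ko and 10.15 ± 0.11 in wt, 1.94-fold lower (adjusted p = 0.0124), and the histone deacetylase Hdac9 averaged 6.99 ± 0.35 in ko and 8.13 ± 0.40 in wt, at least 2.20-fold lower (adjusted p = 0.0459). The calls of Cox5b, Hdac9, Dusp1 and Klf12 were lost in 5, 6, 2 and 1 of the 8 fits without an array, with adjusted p of up to 0.138, 0.14, 0.056 and 0.0513. A further probe set of Klf12 had the other sign (0.14, not called), and the mean over its probe sets was not called (adjusted p = 0.273). None of 19 glycolysis, 22 BMP, 26 cilium and 19 cytoskeleton genes was called by limma, and 4, 4, 1 and 2 of them had an unadjusted p under 0.05, against 11.1% of all genes.

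**Figure D4:**
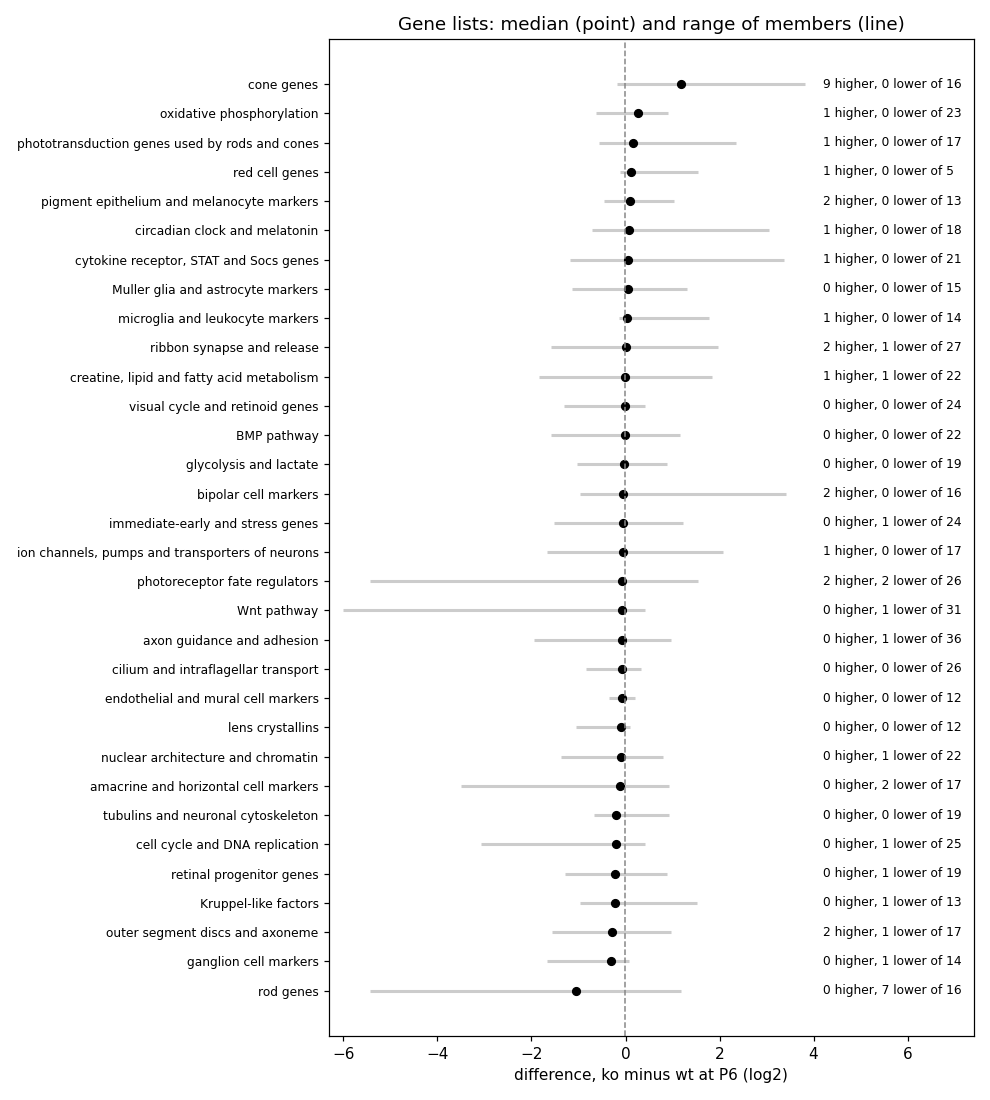
Median difference between ko and wt at P6 (points, log2) and range over measured members (grey lines) for 32 gene lists, ordered by median, with the numbers called at the right and a dashed line at the median of all genes (-0.02). The cone genes stand at 1.18 and the rod genes at -1.05, and the other 30 medians lie between -0.30 and 0.26. The lists were chosen with earlier results of these data known.

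At the threshold, H2bc21 (adjusted p = 0.0484, difference 1.30) and Jchain (adjusted p = 0.0491, difference -1.49) were the last genes called higher and lower. Cuedc1 (0.81) and Rttn (-0.53), each with an adjusted p of 0.0522, were the first outside. Of 39 called genes named here that had several probe sets, 27 had all probe sets of one sign, 12 had at least 1 of the other sign, and 0 had a probe set called in the other direction.

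Beside the neighbouring stages, 63 genes were called at P2 (0.346%), 23 higher (0.126%) and 40 lower (0.22%), and 512 at P10 (2.81%), 354 higher (1.95%) and 158 lower (0.868%). Of the genes called higher at P6, 14 were also called at P2, which is 9.66% of the P6 genes and 60.9% of the P2 genes. For those called lower the number was 24, or 17.6% and 60.0%. With P10, 79 were shared among the higher genes (54.5% of P6 and 22.3% of P10) and 42 among the lower (30.9% and 26.6%). No gene was called in opposite directions at P6 and at either neighbouring stage, and 148 of the 281 were called at neither.

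The 26 genes called at all 3 stages were 13 higher and 13 lower. The higher ones included Gnat2, Pde6c, Moxd1, Mtnr1a, Pnp, Prickle2, Lhx4, Gulo, which in mice encodes the last enzyme of ascorbate synthesis, and Fam210b. The lower ones included Nrl, Lrp4, Pde6b, Tfap2b, Pax7, Pitpnm3, Ctr9, which acts in transcription elongation as part of PAF1, Pdgfd, a growth factor, and Scube3. Lrp4 differed by -3.64 at P2, -6.01 at P6 and -4.53 at P10, and Pnp by 2.72, 3.10 and 1.63. The difference was largest at P6 for 5 of the 13 higher and 8 of the 13 lower genes, without a test of that order.

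Whether the genotype effect itself changed between stages was tested directly. Between P2 and P6 it differed for 3 genes (0.0165%), 2 with a higher (0.011%) and 1 with a lower value at P6 (0.0055%), while 340 had an unadjusted p under 0.05. Moxd1 differed by 1.5 at P2 and 3.32 at P6 (change 1.83, SE 0.32, adjusted p = 0.0152), and Ece1 by 0.14 at P2 and 2.00 at P6 (change 1.86, SE 0.32, adjusted p = 0.0152). Lmo2, a transcriptional adaptor, differed by 1.62 at P2 and -0.14 at P6 (change -1.76, SE 0.25, adjusted p = 0.00142). The calls of Moxd1 and Ece1 were each lost in 7 of 16 fits that left out an array (adjusted p up to 0.0772 and 0.0784) and with only the P2 and P6 arrays (0.147 and 0.24), while Lmo2 kept its call in these fits. Ko arrays of P6 and P2 with the same replicate number had residuals that correlated positively in all 4 pairs (r from 0.127 to 0.841), as wt arrays did in 3 of 4 (r from -0.17 to 0.557). The test treats arrays as independent, and with a replicate block 8 genes were called, 2 higher and 6 lower, Lmo2 among them (adjusted p = 0.0117) but not Moxd1 (0.139) or Ece1 (0.0689). Kcne2, at 0.63 and 3.51, was not called in this test (adjusted p = 0.099). Opn1sw, at 1.61 and 3.81, was not called either.

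Between P6 and P10 the effect differed for 22 genes (0.121%), 15 with a lower (0.0824%) and 7 with a higher value at P6 (0.0385%). Gnat1 differed by -1.14 at P6 and -3.71 at P10 (P6 minus P10 2.57, SE 0.43, adjusted p = 0.00762), and Reep6 by -0.82 and -2.85 (adjusted p = 0.0154). Guca1a differed by 2.34 at P6 and 5.0 at P10 (adjusted p = 0.0481), Arr3 by 0.36 and 2.96 (adjusted p = 0.0314), Insm2 by 1.32 and 3.95 (adjusted p = 0.00919) and Ccdc136 by 1.2 and 2.77 (adjusted p = 0.00678). These photoreceptor genes had a smaller difference at P6 than at P10, in the direction of loss for Gnat1 and Reep6 and of gain for the others. Fos, an immediate-early gene, differed by -1.38 at P6 and 1.67 at P10 (adjusted p = 0.00919). Gje1 differed by -2.27 and -0.47 (adjusted p = 0.0147). Uqcc2, an assembly factor of respiratory complex III, differed by 0.87 and 0.12 (adjusted p = 0.00984). None of the 9 P6 to P10 differences named here was called with only the P6 and P10 arrays (adjusted p from 0.0552 for Insm2 to 0.364 for Guca1a). Guca1a lost its call in 14 and Arr3 in 9 of 16 fits that left out an array. The counts changed with single arrays, to between 1 and 16 for P2 and between 11 and 142 for P10.

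**Figure D5:**
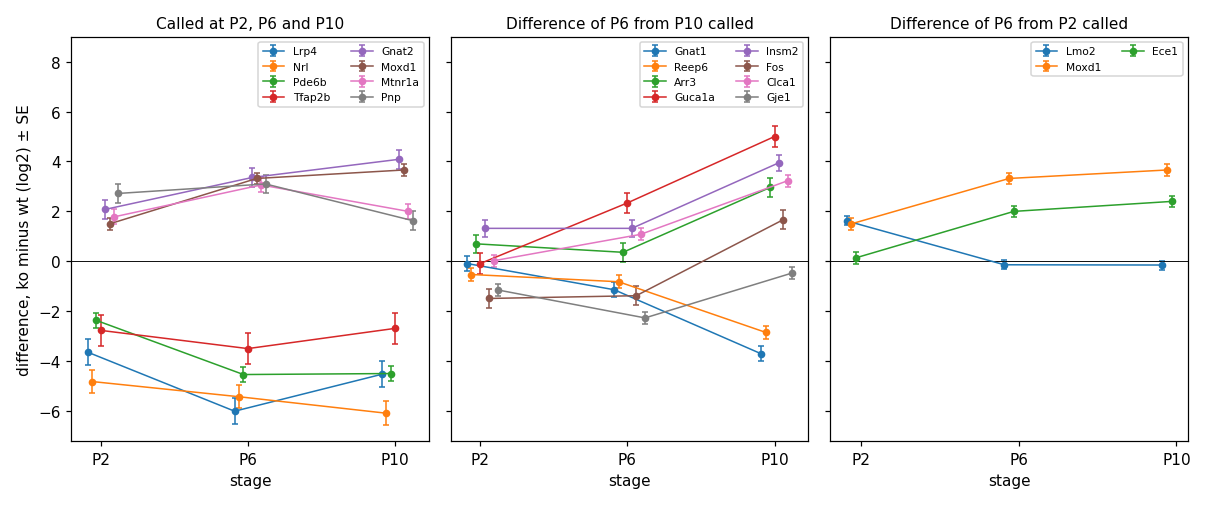
Difference between ko and wt (vertical axis, log2, with SE bars) at P2, P6 and P10 for 8 of the genes called at all 3 stages (left), 8 of the genes whose difference changed between P6 and P10 (middle), and the 3 whose difference changed between P2 and P6 (right). Lrp4 is lowest at P6 (-6.01), while Gnat1 goes on to -3.71 and Guca1a to 5.0 at P10.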

How the data were processed

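Per the submitters' processing notes the values were made with RMA, with no version or settings given in the sources used here. The values used are log2 signals of 39 arrays, deposited by the authors in one table. The authors also deposited detection calls per probe set and group, a value of unit other (present or absent), with replicates combined in an unstated way. In those calls 2 columns could not be assigned to a group and were not used. Of 45101 probe sets, 34945 had exactly 1 gene in the platform annotation, and each of 18193 genes was represented by its probe set with the highest mean over all arrays. No further normalization or filter was applied. Groups came from the titles. A model with a mean for each of 10 groups was fitted with limma 3.58.1 in R 4.3.3 to every array (29 residual and 2.81 prior degrees of freedom), and adjusted p-values in the text are Benjamini-Hochberg values over all genes of a contrast. The number of arrays limits the precision. The fit was tested on simulated data.

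The 32 gene lists (618 of 661 entries measured), the rod and cone members and the tests were chosen with earlier results of these data known. The named genes were the 20 largest rises and 20 largest falls among called genes with separate groups, all rod and cone genes, called members of the other lists or otherwise their 2 largest differences, the 8 smallest p of each test between stages, and the genes at the threshold, passing over unnamed clones. Other genes called at all 3 stages were named after their values were seen.

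Residuals of arrays with the same replicate number were correlated to see whether the numbers pair the arrays. Between ko and wt at P6 r was -0.373, 0.333, 0.294 and 0.759, so they were not treated as pairs. Between P6 and P2 r was 0.789, 0.308, 0.127 and 0.841 for ko and -0.17, 0.557, 0.304 and 0.47 for wt. Alternatives were other normalizations, array weights, filters, probe set rules, array sets, a replicate block and leaving out arrays. The default method of limma's array weights did not converge, and its gene-by-gene method was taken after seeing this. The neighbours of Nrl and the fits without a P2 or P10 array were also added after seeing the data. Promoters and gene positions are from RefSeq on GRCm38.p6, and protein sequences were not used here.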

Additional observations from a re-analysis of the deposited data

Results flagged for a closer look

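In 218 groups of 4 arrays (the named genes in ko and in wt), 27 held an array far from the other 3, by Dixon's 95% critical value for the gap over the range. Chance alone gives about 1 in 20. Of the 27, 18 were low values of ko replicate 4. They were Opn1sw at 11.68, Kcne2 at 10.25, Socs3 at 9.1, Pank1 at 9.64, Plec at 8.14, Chrnb4 at 8.12, Smug1 at 10.01, Pde6c at 10.14, Wscd2 at 7.42, Ankrd33 at 9.8, Gngt1 at 10.76, Cngb3 at 7.96, Rxrg at 7.78, Sall3 at 6.09, Insm2 at 11.41, Clu at 7.86, Pfkp at 8.58 and Fos at 9.46. The same array was high in Grm7 at 7.78 and Clca3a2 at 5.70. Wt replicate 3 was high in Cngb1 at 9.87, Slc24a1 at 7.29, Sag at 12.58 and Guca1a at 7.54. All are photoreceptor genes, which the naming rule favoured. Single wt values stood apart in Pax7 (replicate 4, low at 7.79), Gad1 (replicate 2, high at 9.56) and Frmpd2 (replicate 1, high at 11.65). Ko replicate 4 had an SD over probe sets of 1.40 and wt replicate 3 one of 1.72. Wt replicate 3 also stood apart from the other wt arrays in the 3' minus 5' signals. It had 2.48 for Actb, against 0.86 to 1.36, and 1.35 for Gapdh, against 2.87 to 3.42. The part of array spread and of RNA length in these values was not tested.

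The genotype effect differed between P6 and P2 by a limma test of the difference for Lmo2 (-1.76), Moxd1 (1.83) and Ece1 (1.86). It differed between P6 and P10 for Gnat1 (2.57), Reep6 (2.03), Uqcc2 (0.75), Arr3 (-2.60), Ccdc136 (-1.57), Guca1a (-2.66), Insm2 (-2.63), Clca1 (-2.16), Fos (-3.05), Peg10 (-1.30), Sgk1 (-1.73) and Gje1 (-1.80), with adjusted p from 0.00645 for Clca1 to 0.0481 for Guca1a. With only the P6 and P10 arrays, Peg10 alone of these kept its call (adjusted p = 0.0338).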

How the results depend on the processing

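Of the 72 called genes that the naming rule chose, 40 kept their call in every alternative run and 52 in every fit that left out one P6 array. Genes named outside that rule, such as Gulo and Ctr9, were not followed through the alternatives. The rod genes called lower numbered 5 to 7 and the cone genes called higher 8 to 10 in those fits. Without the 6 doubted arrays (named below), 8 rod genes were called lower and 2 higher, 10 cone genes higher, 5 amacrine and horizontal markers lower and 1 higher, 7 synapse genes higher and 6 oxidative phosphorylation genes higher. With the P6 arrays alone, 6 rod genes were lower and 7 cone genes higher. The number of genes called moved widely with the treatment of array spread, and the cause was not tested.

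The 281 genes called at P6 (145 higher, 136 lower) became 689 (371, 318) with quantile normalization, 542 (325, 217) with arrays scaled to one SD, 757 (443, 314) without the 6 doubted arrays (the 5 of narrowest spread, ko P6 replicate 4 among them, and ko 4 weeks replicate 2), and 4193 (1682, 2511) with array weights. The weights are unstable: the gene-by-gene method gave wt replicate 1 a weight of 3.63, and the default method, which did not converge, gave it 2.74e-06. No statement here rests on that count. The 8 P6 arrays alone called 201 genes, 55 higher and 146 lower, and testing all probe sets called 434 genes (239 higher). Leaving out one array gave 147 to 323 genes, 81 to 230 higher and 66 to 120 lower, with the lowest of each without ko replicate 3 and the highest total and rise without ko replicate 4. Without ko replicates 1 and 2 in turn the totals were 171 and 167, and without wt replicates 1 and 2 they were 164 and 175.

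With a replicate block, among the P6 arrays alone, 431 genes were called, 305 of them lower. Residuals of ko and wt arrays of the same number correlated at -0.373 to 0.759, and 2 of 4 ko arrays correlated best with their own number. This does not settle whether the numbers pair these arrays.

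The 3 genes whose effect differed between P6 and P2 (2 higher, 1 lower) became 6 (1, 5) with only the arrays of the contrast, 8 (6 lower) with the replicate block, 11 (7, 4) with quantile normalization, 10 (8, 2) at one SD, 363 (157, 206) with array weights and 44 (32, 12) without the doubted arrays. Only 1 was higher with the mean over probe sets, and 2 were lower among genes present in ko or wt. Leaving out one array gave 1 to 16 (0 to 15 higher, 1 to 2 lower), 16 without ko P6 replicate 4. The 22 genes between P6 and P10 (7 higher, 15 lower) became 7 (0, 7), 3 (0, 3), 120 (58, 62), 90 (41, 49), 4229 (1602, 2627) and 234 (190, 44) under the same 6 settings. With the mean over probe sets and with trended, robust variances 4 were higher, and 24 were lower among present genes. Leaving out one array gave 11 to 142 (2 to 35 higher, 8 to 107 lower), 142 without wt P10 replicate 3.

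The sign changed for 6 uncalled named genes, all within 0.14 of 0. Slc24a2 (-0.04) was 0.0 with quantile normalization, 0.23 over probe sets, 0.03 without ko replicate 2 and 0.04 without wt replicate 4 (-0.12 to 0.04 over the fits without an array). Slc24a1 (-0.08) was 0.14 with weights and 0.13 without wt replicate 3 (-0.17 to 0.13). Opn1mw (0.03) was -0.08 with weights and -0.05 without wt replicate 2 (-0.05 to 0.10). Thrb (0.02) was -0.13 with weights, -0.03 without the doubted arrays, without ko replicate 4 and in the P6 arrays without it, and -0.05 without wt replicate 2 or 3 (-0.05 to 0.09). Esrrb (0.14) was -0.05 over probe sets, and Peg10 (0.07) was -0.01 without ko replicate 1. The RNA length measure, 0.30 higher in ko from Actb, was -0.05 from Gapdh (exact permutation p = 0.914).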

Other observations

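Genes beside Nrl on chromosome 14 were examined after the data were seen. Among the 100 measured genes nearest to it, 50 on each side, 0 were called by limma and 9 had an unadjusted p under 0.05, against 11.1% of all genes. Among the nearest 200, 3 were called (Armh4, Pnp and Ebpl), or 1.5%, near the 1.54% of all genes.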
